A study of Mus musculus with 6 samples.

Results

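The scavenger receptor genes described here are Stab1, Cd36, Msr1, Scarb1, Colec12, Cd5l, Marco and Olr1. They were chosen by name, with earlier results of these data known, and matched by gene symbol; all 8 were found among the 54232 genes of the deposited table. RNA was measured in bone marrow derived macrophages, which were grown for 7 days with 30% L929 cell-conditioned medium, a source of colony-stimulating factor 1, and were left untreated. There were 3 SIRPa KO libraries, from cells that lack the inhibitory receptor for CD47, and 3 WT libraries. The mice of both groups are labelled C57BL/6 and 8 weeks old. The labels give neither the design of the KO allele nor the origin of the replicates, which may share a mouse or a culture. Each p-value therefore reflects library-to-library spread, part of which may be technical.

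Scavenger receptors are structurally diverse proteins that share a broad choice of ligands. They bind modified low density lipoprotein, bacterial surfaces and dying cells, and macrophages use them to take up this material and the lipid it carries. Msr1, Marco and Colec12 are class A receptors with a collagen-like stalk. Cd36 and Scarb1 are class B receptors that pass the membrane at both ends of the protein. Olr1 is a lectin-like receptor of class E, Stab1 a large endocytic receptor of class H, and Cd5l a secreted protein built of the cysteine-rich domains that class I receptors carry.

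Sirpa itself averaged 2074.8 ± 56.0 normalized counts in KO and 106443 ± 10296 in WT libraries (SD, n = 3 each), so the libraries matched their labels. Recovered reads assigned to genes numbered 28653015 to 31401080 in KO and 34102444 to 67446846 in WT libraries, so that depth and genotype cannot be told apart by these libraries. All 7 macrophage markers listed (Adgre1, Csf1r, Cd68, Lyz2, Itgam, Mertk and Fcgr1) were detected, with a summed level of 877004 to 1012701 normalized counts in KO and 997197 to 1190708 in WT libraries. Most of this sum was Lyz2, which averaged 753007 over the 6 libraries and whose groups overlapped. The sums were 422 to 591 in KO and 358 to 731 in WT for 8 neutrophil markers, and 133 to 148 in KO and 119 to 178 in WT for 6 dendritic cell markers. They stayed at or under 13.0 in every library for each of the lists of erythroid, B lymphocyte, T or NK and fibroblast markers, and ran from 60.1 to 112 in KO and from 64.2 to 98.9 in WT for the mast cell list. Endothelial cells also carry several scavenger receptors, Stab1 and Colec12 among them. The 6 endothelial markers summed to 2438 to 2671 in KO and 2387 to 2940 in WT, of which Vwf alone averaged 1911 over the 6 libraries. Kdr ran from 513 to 679 in KO and from 466 to 647 in WT, and Pecam1 from 27.7 to 47.0 in KO and from 33.7 to 37.9 in WT. Cdh5 was at 41.3, 37.8 and 32.5 in KO against 28.2, 29.1 and 20.3 in WT, higher in KO without overlap. Such a separation, with KO higher, was seen for 1.96% of the 13527 genes tested below. Tek and Lyve1 did not exceed 3.21 in any library. The part of endothelial transcripts in the members' values was not tested.

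None of the 7 tested scavenger receptor genes passed the test between KO and WT. With limma, a linear model fitted to log2(normalized count + 1) of all genes, 0 members rose and 0 fell at a Benjamini-Hochberg adjusted p under 0.05, where 0% of the 13527 tested genes rose and 0.00739% fell. A single gene, Sirpa, made up that background. The smallest adjusted p among the members was 0.9998. At an unadjusted p under 0.05 there was 1 member, Cd5l, of 7, against 1.52% of all tested genes. The edgeR quasi-likelihood test and DESeq2, run on the recovered reads, also called 0 members. Olr1 was too low to be tested, since a gene needed at least 10 normalized counts in at least 3 libraries. Of the 7 tested members, 3 had a KO mean above WT and 4 below, with a median log2 fold change of -0.11, beside -0.01 over all tested genes. In this bulk RNA, fewer cells of a type and less RNA per cell cannot be told apart.

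**Figure D1:**
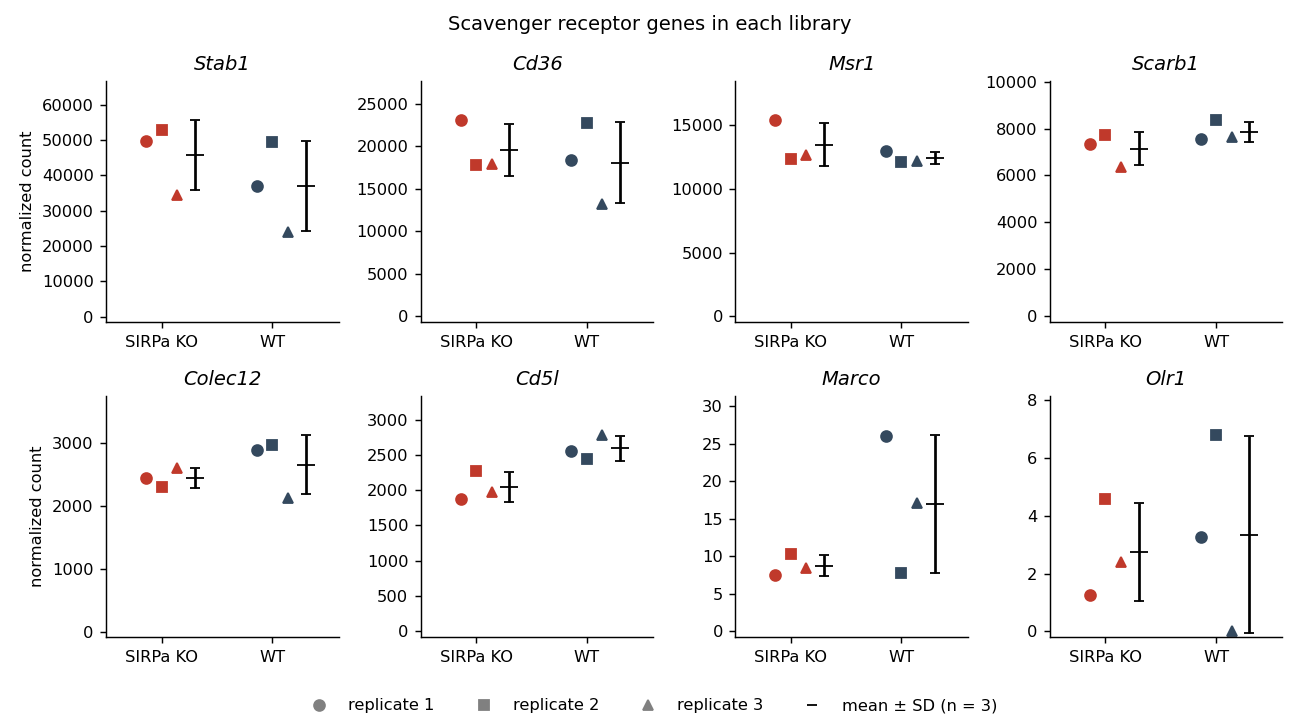
Normalized count (linear axis) of the 8 scavenger receptor genes in each SIRPa KO (red) and WT (dark) library, with the replicate number as the marker shape and the mean ± SD of 3 libraries as the bar. The groups overlap for every gene but Cd5l, whose KO libraries reach 2276 and whose WT libraries start at 2441.

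The members covered a very wide range of abundance. Together they took 0.279%, 0.265% and 0.213% of assigned reads in the KO libraries (replicates 1 to 3), and 0.220%, 0.271% and 0.172% in those of WT. On average the share was 0.252 ± 0.0348% in KO and 0.221 ± 0.0495% in WT (SD, n = 3 each), so the groups overlapped and differed by less than their spread. Within those reads Stab1 held 38.8 to 55.5%, Cd36 18.6 to 23.6% and Msr1 12.3 to 19.6%, depending on the library.

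Levels of different genes were compared as normalized counts per kilobase of annotated exon, with the mean over the 6 libraries. In this scale Cd36 stood at 5249 and Stab1 at 4015. Their ranges over libraries overlapped, and Cd36 was above Stab1 in 5 of 6 libraries, so this pair does not differ beyond its spread. Msr1 followed at 2037, below Stab1 in all 6 libraries although their ranges overlapped. Cd5l stood at 1138 and Scarb1 at 882, again with overlapping ranges, although Cd5l was above Scarb1 in all 6 libraries. Colec12 was at 292, a step of 3.01-fold below Scarb1. Marco was at 6.69, 43.8-fold below Colec12, and Olr1 was last at 0.854. The length used matters for the middle of this order: with the longest annotated transcript in place of all exons, Scarb1 was at 2423 and stood above Cd5l at 1138, while Cd36 (5544), Stab1 (5164) and Msr1 (3555) kept their order.

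**Figure D2:**
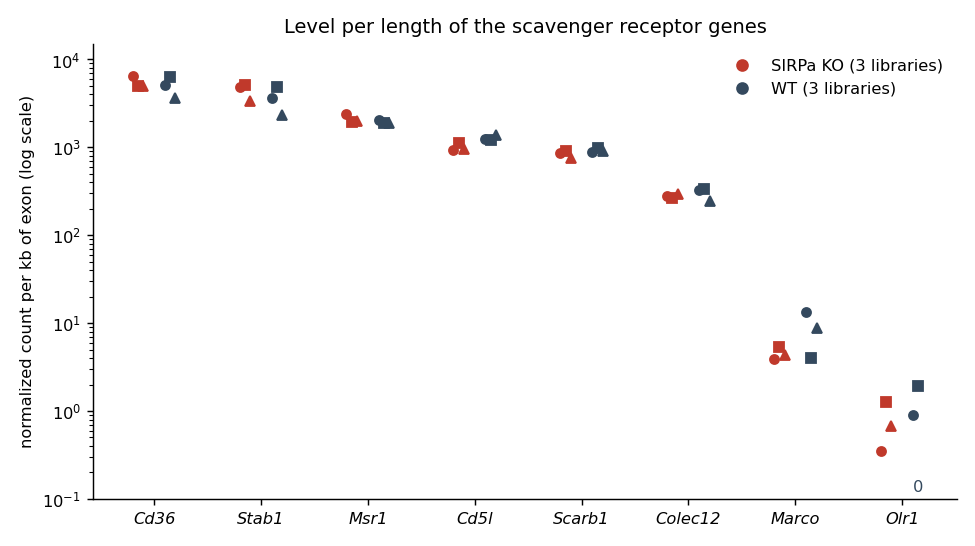
Normalized count per kilobase of exon (log axis) of the 8 genes in each SIRPa KO (red, left) and WT (dark, right) library; marker shapes are replicates 1 (circle), 2 (square) and 3 (triangle), and a 0 marks the library where Olr1 had no read. Genes run from Cd36 at a mean of 5249 down to Olr1 at 0.854, and Marco and Olr1 lie apart from the other six.

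RefSeq promoter windows, from 250 bases before to 50 bases after the annotated start, were at hand for 5 members (Stab1, Cd36, Cd5l, Marco and Olr1). All 5 are shown, since they hold the 2 highest and the 2 lowest members per length (Cd36 and Stab1 against Marco and Olr1) and the member whose KO and WT libraries did not overlap (Cd5l). Capitals mark GAGGAA on either strand, the core bound by the myeloid factor PU.1, and TGANTCA, the motif of AP-1. All windows are given on GRCm38.p6, 5′ to 3′ along the gene: Cd36 at chr5:17835847-17836146 (minus strand), Stab1 at chr14:31168592-31168891 (minus strand), Cd5l at chr3:87357631-87357930 (plus), Marco at chr1:120504975-120505274 (minus) and Olr1 at chr6:129507116-129507415 (minus).
Cd36: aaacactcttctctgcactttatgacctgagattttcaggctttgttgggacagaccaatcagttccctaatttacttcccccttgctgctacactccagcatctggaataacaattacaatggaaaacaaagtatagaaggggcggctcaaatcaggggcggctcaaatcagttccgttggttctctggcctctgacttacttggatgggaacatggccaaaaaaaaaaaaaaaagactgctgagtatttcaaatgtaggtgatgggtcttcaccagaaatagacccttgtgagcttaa
Stab1: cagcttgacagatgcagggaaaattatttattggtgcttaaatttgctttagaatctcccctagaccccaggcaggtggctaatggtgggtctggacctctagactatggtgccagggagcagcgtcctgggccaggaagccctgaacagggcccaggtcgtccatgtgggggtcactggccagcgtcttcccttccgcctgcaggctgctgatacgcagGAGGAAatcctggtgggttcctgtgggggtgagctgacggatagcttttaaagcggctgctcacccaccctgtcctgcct
Cd5l: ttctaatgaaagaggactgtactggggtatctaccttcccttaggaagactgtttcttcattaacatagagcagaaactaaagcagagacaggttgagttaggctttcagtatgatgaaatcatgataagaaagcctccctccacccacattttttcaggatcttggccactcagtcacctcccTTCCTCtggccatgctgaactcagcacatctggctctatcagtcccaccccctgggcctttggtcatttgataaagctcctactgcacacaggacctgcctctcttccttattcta
Marco: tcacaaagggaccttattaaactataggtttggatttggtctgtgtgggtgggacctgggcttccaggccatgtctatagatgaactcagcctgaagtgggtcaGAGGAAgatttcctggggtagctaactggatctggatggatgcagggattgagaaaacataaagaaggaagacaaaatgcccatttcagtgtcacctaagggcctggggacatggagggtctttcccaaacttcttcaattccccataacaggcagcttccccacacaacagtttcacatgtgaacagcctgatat
Olr1: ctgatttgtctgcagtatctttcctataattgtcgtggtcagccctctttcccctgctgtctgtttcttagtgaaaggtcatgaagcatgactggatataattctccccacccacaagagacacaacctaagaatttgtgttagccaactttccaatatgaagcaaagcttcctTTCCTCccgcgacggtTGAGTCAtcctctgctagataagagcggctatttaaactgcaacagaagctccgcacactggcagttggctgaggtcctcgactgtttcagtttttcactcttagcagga
The PU.1 core occurred once in each window but that of Cd36, the highest member per length, which had none and whose window lies inside the annotated gene. It begins 30 bases before the start in Stab1, 66 in Cd5l, 146 in Marco and 76 in Olr1. The core was present in 28.3% of all 32851 windows of this length. The AP-1 motif was in the Olr1 window only, among the 5, and in 7.81% of all windows. TATAAA was also searched on both strands. It had no match in the 5 windows and was present in 13.6% of all windows. Whether any of these motifs is bound, or has a part in the members' levels, was not tested.

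Msr1 encodes the class A receptor that takes up acetylated and oxidized low density lipoprotein. Its level was 15372, 12317 and 12637 normalized counts in KO libraries, in the order of their replicate numbers, against 12959, 12106 and 12155 in the WT libraries. KO replicate 1 was the highest library and the other 5 lay close together, so the groups overlapped. The log2 fold change was 0.11 (SE 0.11, limma adjusted p = 0.9998), and its 95% interval allowed a KO level from 0.905-fold to 1.29-fold of WT. Leaving out single libraries gave log2 fold changes from 0.0088, without KO replicate 1, to 0.17, without KO replicate 2. On GRCm38 the gene occupies chromosome 8, minus strand, 39581685 to 39642673.

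Colec12 encodes a class A receptor that ends in a C-type lectin domain. It was at 2437, 2296 and 2602 normalized counts in KO and at 2890, 2966 and 2121 in WT libraries. WT replicate 3 was the lowest of all 6 libraries, while the other WT libraries were the highest. The mean was 2445 ± 153 in KO and 2659 ± 468 in WT (SD, n = 3 each). The log2 fold change of -0.11 (SE 0.14, limma adjusted p = 0.9998) became -0.26 without WT replicate 3, but -0.02 without WT replicate 2 and -0.04 without WT replicate 1, and its interval ran from 0.751-fold to 1.15-fold. The gene spans 9707595 to 9882644 on the plus strand of chromosome 18.

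Marco encodes the class A receptor of macrophages that binds bacteria and inhaled particles. It had only 6, 9 and 7 recovered reads in KO libraries, against 24, 8 and 32 reads in WT libraries. As normalized counts these were 7.51, 10.3 and 8.44 in KO and 26.1, 7.77 and 17.1 in WT. WT replicates 1 and 3 were above every KO library, but WT replicate 2 fell among the KO libraries. Summed over libraries, reads came to 0.245 CPM (reads per 1e6 assigned reads) in KO (95% Poisson interval 0.154 to 0.371) and 0.461 CPM in WT (0.355 to 0.589), intervals that cover counting error only. The log2 fold change was -0.75 (SE 0.45, limma adjusted p = 0.9998), on a scale that understates differences of low genes. In the interval the KO level could lie anywhere from 0.297-fold to 1.19-fold of WT. Without WT replicate 2 it was -1.19. Without KO replicate 2, WT replicate 1 or WT replicate 3 the gene no longer had enough libraries at 10 normalized counts to be tested. Marco lies on chromosome 1 from 120474538 to 120505024 on the minus strand.

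Cd36 encodes the class B receptor for oxidized lipoprotein, long-chain fatty acids and apoptotic cells. It stood at 23080, 17778 and 17913 normalized counts in KO and at 18373, 22712 and 13202 in WT libraries. The highest library was KO replicate 1 and the lowest WT replicate 3, with WT replicate 2 close to the top, so the groups overlapped throughout. The mean was 19590 ± 3023 in KO and 18096 ± 4761 in WT (SD, n = 3 each). The log2 fold change was 0.14 (SE 0.19, limma adjusted p = 0.9998) and turned to -0.07 without WT replicate 3, but was 0.32 without WT replicate 2. Its interval ran from 0.827-fold to 1.47-fold. Cd36 lies on chromosome 5 from 17781690 to 17888801 on the minus strand.

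Scarb1 encodes the class B receptor that draws cholesteryl ester from high density lipoprotein. Its counts were 7334, 7714 and 6376 in KO and 7551, 8350 and 7634 in WT libraries, as normalized counts. KO replicate 3 was the lowest library and WT replicate 2 the highest, and KO replicate 2 lay between WT values. The log2 fold change was -0.14 (SE 0.11, limma adjusted p = 0.9998), with an interval from 0.768-fold to 1.07-fold. Without KO replicate 3 it was -0.06, and without KO replicate 2 it was -0.20. Scarb1 is on the same chromosome and strand as Cd36, from 125277087 to 125341094.

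Olr1 encodes the lectin-like receptor for oxidized low density lipoprotein that is best known from endothelium. It had 1, 4 and 2 recovered reads in KO libraries and 3, 7 and 0 reads in WT libraries. The absence of reads in WT replicate 3, the deepest library, allows up to 3 reads or 1.61 normalized counts there. Over all libraries the rate was 0.0780 CPM in KO (95% Poisson interval 0.0314 to 0.161) and 0.0720 CPM in WT (0.0345 to 0.132). A difference was not detectable at this depth. In the authors' deposited table the log2 fold change of Olr1 was -0.23 with a standard error of 1.41. The gene lies on chromosome 6 from 129485244 to 129507165 on the minus strand.

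Stab1 encodes stabilin 1, an endocytic receptor for matrix proteins and for exposed phosphatidylserine. It was the member with the most reads, at 49754, 52951 and 34486 normalized counts in KO and 37128, 49496 and 24046 in WT libraries. KO replicates 1 and 2 and WT replicate 2 formed the upper end, KO replicate 3 and WT replicate 1 the middle, and WT replicate 3 the lowest value. From the lowest to the highest library Stab1 varied 2.20-fold, beside 1.75-fold for Cd36, 1.27-fold for Msr1 and 1.31-fold for Scarb1. The mean was 45730 ± 9869 in KO and 36890 ± 12727 in WT (SD, n = 3 each). Its log2 fold change of 0.35 (SE 0.24, limma adjusted p = 0.9998) was the most positive among the members, and its interval ran from 0.874-fold to 1.85-fold. Without WT replicate 3 it was 0.07, and without WT replicate 2 it was 0.59. Stab1 lies on chromosome 14 from 31139013 to 31168641 on the minus strand and shares 112 exonic bases with Nt5dc2 on the opposite strand, which averaged 3480 normalized counts. Whether reads were counted by strand is not stated in these sources.

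Cd5l, a secreted protein also called apoptosis inhibitor of macrophages and a known target of the oxysterol receptor LXR, was the member that came nearest to a call. It had 1877, 2276 and 1973 normalized counts in KO libraries and 2551, 2441 and 2779 in WT libraries. All 3 KO libraries were below all 3 WT libraries. Groups failed to overlap with KO lower for 1 of the 7 tested members, and for 2.71% of all tested genes. The log2 fold change was -0.35 (SE 0.11) with an interval from 0.661-fold to 0.936-fold of WT. The unadjusted limma p was 0.0116 and the adjusted p 0.9998, so Cd5l did not pass over all genes. It was negative in each fit that left out a library, from -0.43 to -0.29. The authors' deposited table gives Cd5l a log2 fold change of -0.34 and an unadjusted p-value of 0.00896, with an adjusted p-value of 0.9999. Cd5l lies on chromosome 3 from 87357881 to 87371073 on the plus strand.

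The intervals show which sizes of difference remain possible. For Msr1, Colec12, Cd36 and Scarb1, 4 of the 7 tested members, the 95% interval lay within 1.5-fold of WT in either direction, as it did for 69.1% of all tested genes. For Cd5l its lower end reached 0.661-fold. For Stab1 an increase up to 1.85-fold was within the interval, and for Marco a decrease to 0.297-fold. Within 2-fold lay 6 of the 7, all but Marco, and 87.6% of all tested genes.

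**Figure D3:**
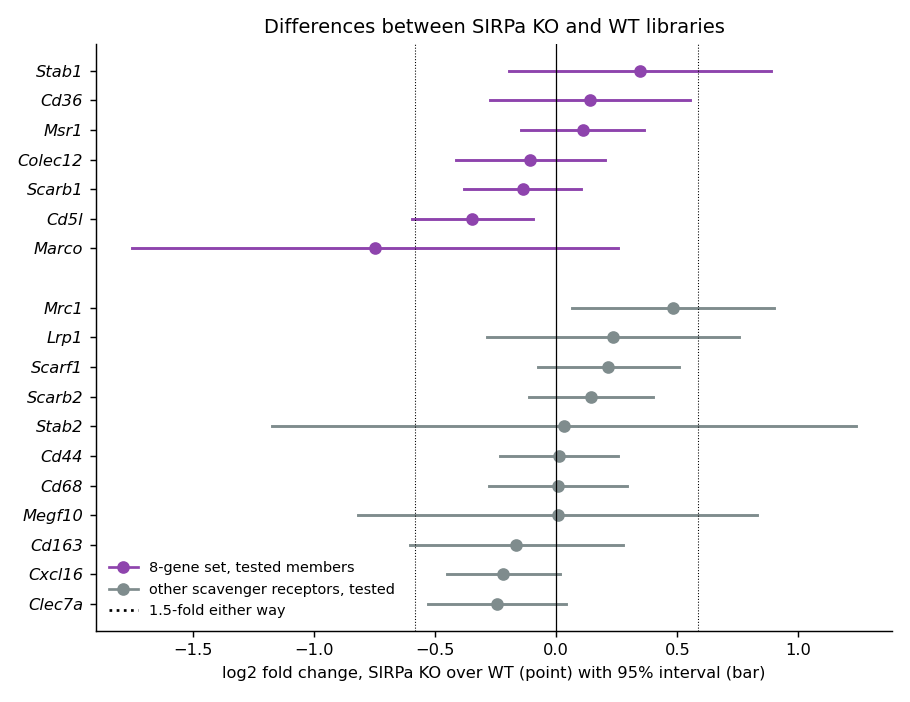
Log2 fold change of SIRPa KO over WT (point) with its 95% interval by limma (bar) for the 7 tested members (purple) and for 11 other scavenger receptors (grey); dotted lines mark 1.5-fold. Only the intervals of Cd5l (0.661-fold to 0.936-fold) and Mrc1 (1.05-fold to 1.86-fold) leave out 0 on the log2 axis, and neither gene passed the adjusted test.

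The members differed in how far libraries of the same group lay apart. On the log2 scale, Stab1 deviated from its mean over the 6 libraries by 0.32, 0.41 and -0.21 in the KO libraries and by -0.10, 0.31 and -0.73 in the WT libraries, again in replicate order. Cd36 deviated by 0.32, -0.06 and -0.05 in KO and by -0.01, 0.29 and -0.49 in WT libraries. WT replicate 3 was thus the lowest library for both, and WT replicate 2 was among the highest. For Colec12 WT replicate 3 was also lowest (-0.26), whereas for Cd5l the same library was highest (0.28). Within groups, the log2 SD of Stab1 (0.44) was larger than that of 88.7% of all tested genes and that of Cd36 (0.32) larger than 79.2%. Cd5l (0.12), Scarb1 (0.12) and Msr1 (0.13) ranked at 22.6%, 19.9% and 25.8%, and Colec12 (0.20) at 54.4%. The largest SD among the tested members was that of Marco (0.60, ranked at 94.5%), which had few reads. WT replicate 3 was the deepest library, with 44935 recovered reads of Stab1 and 24671 of Cd36. The part of depth in the low values of Stab1 and Cd36 there was not tested.

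**Figure D4:**
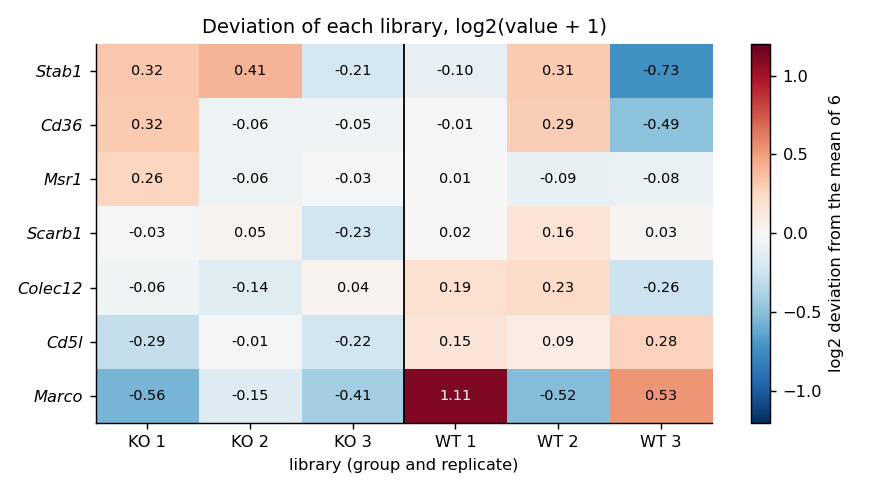
Log2 deviation of each library from the gene's mean over all 6 libraries, on log2(value + 1), for the 7 tested members (rows) in the KO and WT libraries (columns, split by the line). Stab1 and Cd36 are lowest in WT replicate 3 (-0.73 and -0.49), and Cd5l is highest there (0.28).

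The likeness of patterns was described by Pearson's r of log2 values over the 6 libraries, among 9903 tested genes with a mean of at least 100 and a gene name. Over so few libraries, which also share their group and depth, very high values arise for many genes, so r is a description. Among the members, Stab1 and Cd36 were each other's closest (r = 0.836), and Cd5l and Marco likewise (r = 0.709). The closest gene of all was Abca2 for Stab1 (r = 0.998) and Adgrl2 for Cd36 (r = 0.999). It was Ube2l6 for Cd5l (r = 0.995) and Rab4b for Scarb1 (r = 0.990). For Marco it was B4galt4 (r = 0.988), for Colec12 Ick (r = 0.987) and for Msr1 Axin1 (r = 0.983). For Stab1, 298 genes had r above 0.9, and for Colec12 24.

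The other scavenger receptors by class, 19 genes, had no member past the test either. Among the 11 that were tested, 0 rose and 0 fell. Log2 fold changes were positive for 8 and negative for 3 (27.3%, beside 51.8% of all tested genes). The median was 0.01, beside -0.01 over all tested genes. These 19 genes were also listed with earlier results of these libraries known, so the split is not independent evidence of a direction. At an unadjusted p under 0.05 there was 1 of 11, Mrc1, against 1.52% of all tested genes. Scara5, Cd163l1 and Cd6 were listed at 0 in all libraries. The untested remainder (Scara3, Asgr1, Cd5, Ager and Lrp2) stayed at or below 15.7 normalized counts. The mannose receptor Mrc1 averaged 28075 ± 2901 in KO and 20586 ± 5495 in WT, and its groups did not overlap. KO was higher without overlap for 1.96% of all tested genes. The Mrc1 log2 fold change was 0.48 (SE 0.19, limma adjusted p = 0.9998), 0.24 without WT replicate 3, the lowest library at 14260, and 0.62 without WT replicate 2. Cxcl16, a transmembrane chemokine that also binds oxidized lipoprotein, averaged 10850 ± 1002 in KO and 12587 ± 239.9 in WT, again without overlap and with a log2 fold change of -0.22. Groups did not overlap for 2 of the 11, where 4.66% of all tested genes show this.

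For Cd68, Lrp1, Clec7a and Scarf1 the groups overlapped. Cd68, the lysosomal receptor of class D and a macrophage marker, averaged 88988 ± 6064 in KO against 88710 ± 8985 in WT, a log2 fold change of 0.01. Lrp1, a very large endocytic receptor, was at 95028, 133877 and 84775 in KO libraries and at 83989, 122362 and 64521 in WT libraries. It was thus highest in replicate 2 of each group and lowest in WT replicate 3, with a log2 fold change of 0.23 (SE 0.24). It was 0.02 without that library and 0.04 when KO replicate 2 was left out. It was 0.37 with KO replicate 3 left out and 0.48 when WT replicate 2 was. Clec7a, the beta-glucan receptor dectin 1, averaged 4597 ± 161 in KO and 5498 ± 891 in WT. Scarf1 averaged 1095 ± 130 in KO and 941 ± 88.7 in WT. None of these 4 passed the test.

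Genes that handle the lipid taken up, or that control the receptors, had no call either. Of 29 genes listed, 28 were tested, of which 0 rose and 0 fell. Log2 fold changes were positive for 10 and negative for 18 (64.3%, beside 51.8% of all tested genes), with a median of -0.06, beside -0.01 over all tested genes. At an unadjusted p under 0.05 there were 3 of 28, Fabp4, Abcg1 and Fabp5, against 1.52% of all tested genes. Groups did not overlap for 6 of the 28 (21.4%), all with KO lower, where 4.66% of all tested genes did not overlap in either direction. The list was drawn up with earlier results of these libraries known, so this share is not independent evidence of a direction. The 6 were Fabp4, Fabp5, Abcg1, Pparg, Tlr2 and Nr1h3, of which Tlr2 and Nr1h3 are named after their values were seen.

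Fabp4, a fatty acid binding protein, had 928, 944.9 and 1179 normalized counts in KO and 1322, 1224 and 1476 in WT libraries (log2 fold change -0.40, SE 0.13, limma adjusted p = 0.9998). Its relative Fabp5 averaged 10153 ± 306 in KO against 12244 ± 963 in WT, a log2 fold change of -0.27. Pparg, the fatty acid receptor known to drive Cd36 and Fabp4, had 1289, 1239 and 1185 in KO and 1448, 1440.2 and 1399 in WT libraries (log2 fold change -0.21, SE 0.10). Cd36 itself had a log2 fold change of 0.14, and its groups overlapped. Nr1h3, which encodes LXR alpha, a receptor known to drive Cd5l, Abcg1, Abca1 and Apoe, averaged 319.9 ± 7.89 in KO and 359.6 ± 16.4 in WT (SD, n = 3 each; log2 fold change -0.17). Abca1, an exporter of cholesterol also named after its values were seen, averaged 3991 ± 426 in KO and 3977 ± 915 in WT, a log2 fold change of 0.02. Abcg1, another exporter, averaged 2931 ± 269.8 in KO against 3850 ± 575 in WT, a log2 fold change of -0.39. Tlr2, a partner of Cd36 in sensing bacterial lipids, averaged 4192 ± 102 in KO and 4627 ± 56.1 in WT, a log2 fold change of -0.14. The most abundant of the list, Apoe, Lpl and Lipa, had log2 fold changes of -0.01, -0.16 and -0.05, and the sign for Apoe turned when the libraries were rescaled to equal medians (0.0058). None of these genes passed the test. Whether Pparg or Nr1h3 had a part in the values of their known targets was not tested.

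Leaving out single libraries moved the members' fold changes but gave no call. The sign turned for Cd36 alone among the tested members, without WT replicate 3. The fit with weights estimated per library was the exception: it called Stab1, Cd36 and Msr1 higher and Colec12, Cd5l and Marco lower in KO. Over all 13527 tested genes it called 3498, of which 1685 were higher and 1813 lower. In that fit KO replicate 1 had a weight of 6.61 and WT replicate 1 of 7.10, the other libraries 0.258 to 0.543, so it rests mainly on 1 library of each group.

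**Figure D5:**
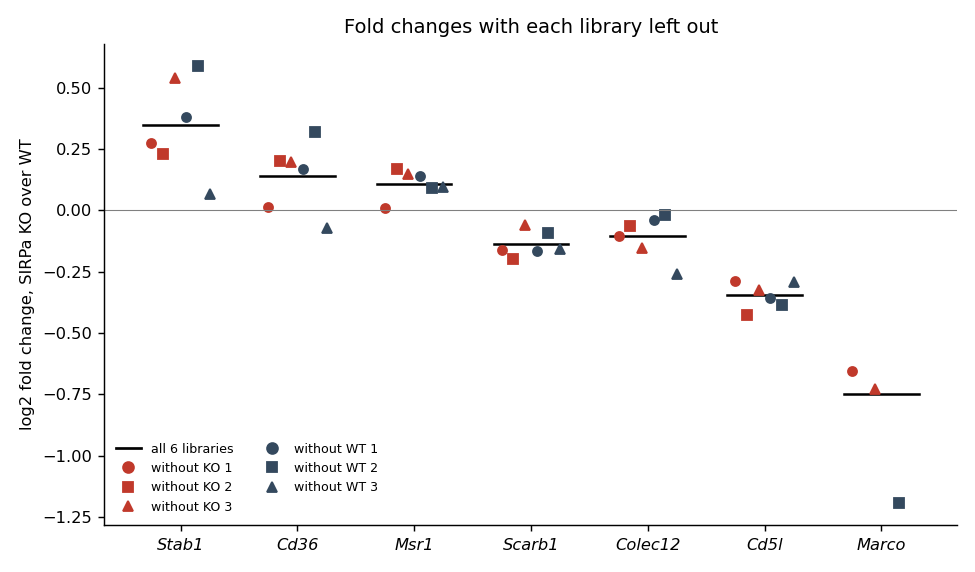
Log2 fold change of SIRPa KO over WT for the 7 tested members with all 6 libraries (line) and with each library left out in turn (points; red for a KO library left out, dark for a WT library). The points for Cd36 run from -0.07 to 0.32, those for Cd5l stay between -0.43 and -0.29, and Marco has points only for the 3 fits in which it could be tested.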

How the data were processed

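The deposited library columns hold a signal: gene read counts divided by 1 size factor per library, by the authors. The tools were STAR 2.5.1b, featureCounts 1.6.0, CASAVA 1.4 and DESeq2 1.22.2 on GRCm38, per the submitters' processing notes, while the series' design text names TopHat 2.0.10. No source used here gives the annotation release or the strand setting. Whole reads were recovered for 100% of positive values within 0.001 reads. Per the file headers, the deposited table also holds a mean signal, log2 fold changes with errors, a test statistic (a score) and p-values. The 67 entries without a symbol (0.00282% of reads) were kept under their IDs.

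Main test: limma 3.58.1 (R 4.3.3) with an intensity trend and no block on log2(value + 1), genes with at least 10 in 3 libraries, two-sided, Benjamini-Hochberg over 13527 genes, threshold 0.05. Groups came from sample titles. Named by rule were all members, Sirpa, the closest gene of each tested member and, of 2 gene lists, the 4 smallest p and 3 highest means. Tlr2, Nr1h3, Abca1 and the cell type markers, Cdh5 among them, were named outside this rule. Alternatives were pseudocounts (0.1, 10), filters (none, 50), TMM and median rescaling, no trend, array weights, a replicate block, edgeR 4.0.16 and DESeq2 1.42.0 on recovered reads, and leaving out libraries. Exon lengths and coordinates came from GENCODE M21. Members and lists were chosen with earlier results of these data known. All replicate pairs differed beyond sampling noise (chi-square of at least 13.4 per degree of freedom). Depth sets counting error only. Scripts were tested on simulated data.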

Additional observations from a re-analysis of the deposited data

How the results depend on the processing

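Across 17 alternatives and 21 followed genes, 332 of 353 log2 fold changes kept their direction and their side of the threshold. Array weights called 1685 genes higher and 1813 lower in KO, 3 members higher and 3 lower, and gave all 13 gains past the threshold; under each other alternative Sirpa alone was called and 0 members were. Signs turned in 8 cases: Cd68 under array weights (-0.16) and, leaving out libraries, from -0.070 to 0.077; Apoe with median rescaling (0.0058) and from -0.13 to 0.10; and Cd36 from -0.071 to 0.32; the cause was not tested. Sirpa ran from -5.76 to -5.62. Each fit that left out a library called 0 genes higher and 1, Sirpa, lower. With the replicate number as a block, 0 genes were called higher and 1 lower, with 0 members. The numbers were not taken as a pairing, which the labels do not state. Same-numbered deviations correlated at 0.013, 0.31 and 0.13. The same-numbered WT library was the closest for KO replicates 1 and 2, although all values of KO replicate 1 ran only from -0.012 to 0.013. KO replicate 3 was slightly closer to WT replicate 1 (0.15). Unadjusted p under 0.05 numbered 108 to 659 with a library left out, against 205. Scaling moved the median of all genes by less than 0.02. Depth limits Marco and Olr1 most, with at most 32 reads in any library, and a minimum of 50 leaves both untested.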
